A study of Mus musculus with 7 samples.

Results

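Genes of the phase I and phase II drug-metabolizing enzymes were examined in the hearts of mice with cardiac expression of full-length Nrf2. They were taken by symbol, as every gene whose name starts with Cyp, Fmo, Ces, Ugt, Sult, Adh, Akr or Nat followed by a digit, with the cholesterol synthesis gene Cyp51 left out. This gave 83 of the 14641 genes in the count table, of which 35 were Cyp, 13 Akr, 11 Nat, 9 Ces, 4 Fmo, 4 Ugt, 4 Sult and 3 Adh. The rule itself uses symbols and no measured value, though it was set with earlier results of these data known. RNA from the whole hearts of 4 non-transgenic (NTG) and 3 mNrf2-TG mice was sequenced. All 7 were males of the C57BL/6J strain, and the transgene, a full-length mouse Nrf2, is driven by the αMHC promoter, which is active in cardiomyocytes. The NTG mice were littermates without the transgene. The labels give an age of 6 months for the mNrf2-TG mice and no age for the NTG mice, and the ranges in the study's methods and design text reach somewhat higher.

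Phase I enzymes add or uncover a reactive group on a drug, toxin or endogenous lipid by oxidation, reduction or hydrolysis. Cytochromes P450 (Cyp) and flavin monooxygenases (Fmo) oxidize, alcohol dehydrogenases (Adh) and aldo-keto reductases (Akr) interconvert alcohols with aldehydes and ketones, and carboxylesterases (Ces) cleave esters. Phase II enzymes then attach a group, which in the families taken here is glucuronic acid (Ugt), sulfate (Sult) or acetate (the arylamine N-acetyltransferases). The liver carries most of this chemistry, and Nrf2 is known for driving part of it together with the aryl hydrocarbon receptor and nuclear receptors. The prefix Nat takes in acetyltransferases with other substrates as well, and only 2 of the 11 Nat genes here (Nat1 and Nat2) are of the arylamine kind.

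Each library was 1 heart, with 6534684 to 8405857 reads counted on the listed genes. Values are given as normalized counts, that is, reads divided by the library's TMM-scaled total and brought to the mean of the 7 libraries. Nfe2l2, the gene for Nrf2, was at 752 to 1402 in the NTG hearts and 10751 to 12030 in the mNrf2-TG hearts (Log2FC 3.36, SE 0.177, adjusted p = 2.96e-06), which counts endogenous and transgenic mRNA together. NTG replicate 3 stood apart for these enzymes: among the 39 genes with a mean of at least 10 counts it was the highest of the 4 NTG libraries in 20, against 2, 5 and 12 for replicates 1, 2 and 4. Results that it moves are given with and without it where the gene was refitted by name. In whole-heart RNA, fewer cells of a type and less RNA per cell cannot be told apart.

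Most drug-metabolizing genes were low in the heart. A mean of at least 10 counts was reached by 39 of the 83, and 53% of the 83 were below it, against 17.5% of all genes tested. In 17 genes no library had more than 3 counts: Cyp1a2, Cyp2d11, Cyp4a32, Cyp4f15, Cyp21a1, Cyp26a1, Fmo4, Ces5a, Akr1b7, Akr1c12, Akr1cl, Sult1d1, Sult6b1, Ugt1a6a, Ugt1a6b, Nat8f3 and Nat8f6. Changes of moderate size were not detectable in genes at this level. Per kilobase of exon, the most abundant in NTG hearts were the aldehyde reductase Akr1a1 at 657 normalized counts per kb and the carboxylesterase Ces1d at 530. Sult1a1 followed at 236 and Akr1b10 at 178.

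Of the 83 genes, 6 were upregulated in mNrf2-TG hearts (Cyp1a1, Cyp2ab1, Cyp27a1, Akr1a1, Akr1b10 and Ces2g) and 1 was downregulated (Cyp1b1) at an adjusted p under 0.05 in edgeR's quasi-likelihood test with Benjamini-Hochberg adjustment over all 14637 genes tested. Together they were 8.43% of the group, where 17.2% of all genes tested passed the same test. By direction, 7.23% of the enzymes were called higher against 8.48% of all genes, and 1.2% were called lower against 8.73%. Among genes with a mean of at least 10 counts, 6 of 39 enzymes (15.4%) were called, against 20.1% of all genes at that level. Each of these shares was below that of the transcriptome as a whole. Their median Log2FC was 0.11 and that of all genes tested was 0.00, with 48 enzymes above 0 and 35 below.

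**Figure D1:**
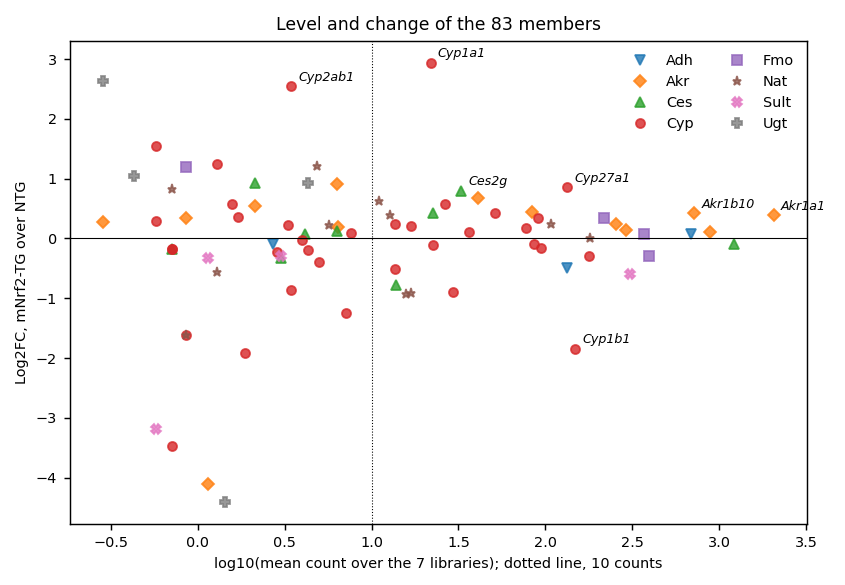
Log2FC of mNrf2-TG over NTG (vertical axis) against the log10 of the mean count over the 7 libraries (horizontal axis), 1 point for each of the 83 genes, coloured by family. The dotted line marks 10 counts, below which 44 genes lie, and large fitted changes of uncertain size are found mostly there.

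The normalized counts of the 2 groups did not overlap in 16 of the 83 genes (19.3%), 11 higher and 5 lower in mNrf2-TG, while this was so for 29.7% of all genes tested. Beside the 7 called genes these were Akr1b8, Cyp4f13, Fmo5, Nat1 and Nat9, higher in mNrf2-TG, and Cyp2b10, Nat8l, Nat14 and Sult1a1, lower in mNrf2-TG. At an unadjusted p under 0.05 and a change of more than 2-fold, 6 genes were taken (Cyp1a1, Cyp1b1, Cyp2ab1, Cyp2b10, Akr1c21 and Nat1), which is 7.23% of the group against 5.65% of all genes tested.

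**Figure D2:**
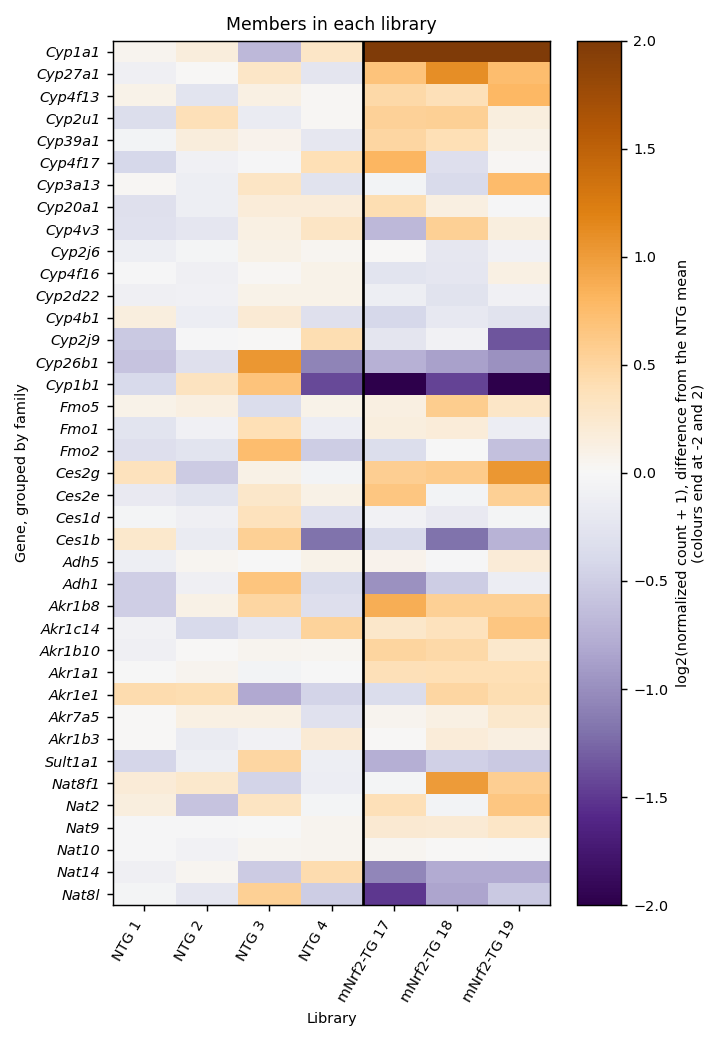
Each row is 1 of the 39 genes with a mean of at least 10 counts, grouped by family, and each column is 1 library. Colour gives log2(normalized count + 1) as the difference from the NTG mean, so that Cyp1a1 stands out in all 3 mNrf2-TG libraries and NTG replicate 3 is the highest NTG library for 20 of the genes.

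Cyp1a1 and Cyp1b1 belong to the same P450 family, are both textbook targets of the aryl hydrocarbon receptor, and moved in opposite directions here. The 250 bases before their transcription starts are shown to let the promoters of these genes be compared. They were taken from RefSeq on GRCm38.p6, 5′ to 3′ in the direction of transcription, and capitals mark GCGTG, the core of the xenobiotic response element bound by the aryl hydrocarbon receptor, on either strand (CACGC where it lies on the opposite strand).
Cyp1a1, chr9:57697363-57697612, + strand: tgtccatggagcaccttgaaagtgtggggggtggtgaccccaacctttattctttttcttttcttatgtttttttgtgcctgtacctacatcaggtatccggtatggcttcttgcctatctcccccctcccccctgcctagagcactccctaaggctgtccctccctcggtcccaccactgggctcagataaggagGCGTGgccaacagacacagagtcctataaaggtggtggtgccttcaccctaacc
Cyp1b1, chr17:79715062-79715311, - strand: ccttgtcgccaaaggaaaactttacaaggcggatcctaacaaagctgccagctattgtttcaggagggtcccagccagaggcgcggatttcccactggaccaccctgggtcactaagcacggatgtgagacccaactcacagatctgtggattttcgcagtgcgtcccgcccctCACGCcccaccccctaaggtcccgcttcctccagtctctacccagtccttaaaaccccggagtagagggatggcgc
The core begins 54 bases before the start in Cyp1a1 and 76 bases before it in Cyp1b1, in opposite orientations. The RefSeq start used for Cyp1a1 lies inside the GENCODE span of the gene (57687928 to 57703824), not at its end. GCGTG on either strand was held by 32.4% of all 32851 RefSeq promoter windows (250 bases before to 50 after the start) and by 20 of the 76 windows found for 67 of the 83 genes (26.3%). The antioxidant response element core TGACNNNGC, the element that Nrf2 binds, was in 12.4% of all windows and in 6 of those 76 (7.89%), those of Akr1c19, Akr1cl, Cyp2j6, Cyp4f18, Cyp8b1 and Nat8f4. None of these 6 genes was called, but of them only Cyp2j6 had a mean of at least 10 counts, so calls were hardly possible in the others. No window of the 7 called genes held these letters, which few windows of any gene hold. Whether this motif and a change in mNrf2-TG go together was not tested. The motifs can overlap by the letters GC, neither printed sequence holds both, and matches are letters in a window, not measured sites.

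Cyp1a1 (chromosome 9, 57687928 to 57703824 on GRCm38), the enzyme that hydroxylates polycyclic aromatic hydrocarbons, had the largest upregulation of the 39 genes with a mean of at least 10 counts. Normalized counts were 5.75, 6.3, 3.09 and 6.97 in NTG replicates 1 to 4 and 45.2, 58.1 and 27.2 in mNrf2-TG replicates 17, 18 and 19. Every mNrf2-TG library was above every NTG library, and the lowest of them stood well clear of the highest NTG value. The Log2FC was 2.94 (SE 0.357, 95% interval 2.14 to 3.73, adjusted p = 0.000831 by edgeR), a 7.66-fold difference. The call was made under each of the 15 alternative settings, with a Log2FC from 2.67 to 3.19. Even so, Cyp1a1 remained a rare transcript at 15.6 normalized counts per kb in mNrf2-TG. Its near relative Cyp1a2, which shares 3.43% of the 50-base stretches of Cyp1a1, had at most 1 count in any library.

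**Figure D3:**
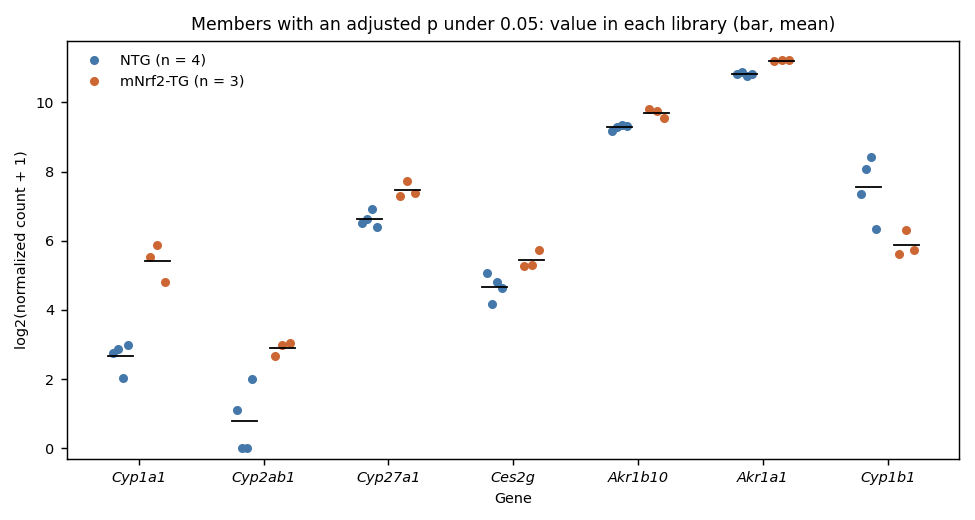
The 7 genes with an adjusted p under 0.05, shown as log2(normalized count + 1) in each library, with a bar at the group's mean of these values. Points of the 2 groups do not overlap in any of them, and the gap is narrowest for Cyp1b1, where NTG replicate 4 lies just above the highest mNrf2-TG library.

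Cyp1b1 (chromosome 17, 79701537 to 79715061), which metabolizes estradiol and aromatic hydrocarbons outside the liver, was the only enzyme gene downregulated. NTG values were 163, 271, 342 and 79.7 normalized counts, and mNrf2-TG values were 48.4, 77.8 and 52.6. The NTG hearts thus differed widely among themselves, and NTG replicate 4 was within a few counts of the highest mNrf2-TG heart. The Log2FC was -1.84 (SE 0.436, 95% interval -2.81 to -0.87, adjusted p = 0.0184 by edgeR). Without NTG replicate 3 it was -1.53 (adjusted p = 0.0173). The call was lost with limma-voom (adjusted p = 0.0635) and without NTG replicate 2 (0.0503), mNrf2-TG replicate 17 (0.0758) or mNrf2-TG replicate 19 (0.0685).

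Cyp1b1 is known from mesenchymal and vascular cells, so markers of other heart cells are given beside it. In fibroblast markers 4 of 6 were called higher, with summed normalized counts of 8385 to 10851 in NTG against 12158 to 13050 in mNrf2-TG. Smooth muscle and pericyte markers summed to 3644 to 10954 in NTG against 7620 to 11370 in mNrf2-TG, with 1 of 6 called, lower (Rgs5). Among them Acta2 was at 1026, 1092, 7947 and 1886 in NTG and 9353, 8266 and 5470 in mNrf2-TG (Log2FC 1.37, not called). Myh11, Tagln, Cnn1, Pdgfrb and Rgs5 had a Log2FC of -0.10, -0.10, -0.19, -0.40 and -0.35. Of 8 endothelial markers, 1 was called higher (Kdr) and 2 lower (Pecam1 and Cdh5), with sums of 10994 to 13650 and 10335 to 10842. The 4 fibroblast markers called higher were Col1a1, Col1a2, Col3a1 and Lum, while Dcn (Log2FC 0.22) and Pdgfra (Log2FC 0.15) were not called. The part of these cells in the Cyp1b1 result was not tested.

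P450 families 1 to 3 hold the classical drug oxidizers. With Cyp2j and Cyp2u placed among the fatty acid P450s, 13 genes of these families were left, of which 9 had a mean under 10 counts. Besides Cyp1a1 and Cyp1b1 only Cyp2ab1 was called, where 17.2% of all genes tested were. Cyp2ab1 (chromosome 16, 20308387 to 20325404) had 1, 0, 0 and 3 counts in the NTG libraries and 5, 7 and 8 in mNrf2-TG. The groups did not overlap, but these are 4 counts against 20 in all, a ratio per total count of 6.63 with a 95% exact counting interval of 2.22 to 26.7. Its adjusted p was 0.0446 by edgeR and 0.079 by DESeq2, and the call was lost in 7 of the 13 alternatives that tested the gene. Of single libraries, leaving out NTG replicate 1 (adjusted p = 0.0911), 2 (0.1) or 3 (0.0619) or mNrf2-TG replicate 17 (0.0863), 18 (0.104) or 19 (0.114) lost it. Cyp2b10, the prototype target of the constitutive androstane receptor, had 7, 12, 14 and 5 counts in NTG and 4, 5 and 3 in mNrf2-TG (Log2FC -1.25, SE 0.481, adjusted p = 0.102). Without NTG replicate 3 the Log2FC of Cyp2b10 was -1.0 (adjusted p = 0.19). Cyp2d22 was at 91.9 to 105 normalized counts in NTG against 80.8 to 92.6 in mNrf2-TG, and Cyp3a13 was at 12.9 to 19.6 and 11.8 to 27.2. Both ranges overlapped between the groups, and neither gene was called.

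None of the 12 P450s that act on fatty acids and eicosanoids (Cyp2j, Cyp2u and Cyp4) was called by edgeR or DESeq2. An unadjusted p under 0.05 was found for 1 of them (Cyp4f13), beside 4708 of all 14637 genes tested. A mean of at least 10 counts was reached by 8. Cyp4b1, which oxidizes fatty acids and a few protoxins, had the highest P450 level in NTG hearts, at 86.7 normalized counts per kb. In counts it was at 217, 179, 227 and 159 in NTG and 147, 171 and 161 in mNrf2-TG (Log2FC -0.29, 95% interval -0.59 to 0.01, adjusted p = 0.172), with overlapping groups. Cyp2j6, of the subfamily of arachidonic acid epoxygenases, was at 81.6 to 94.9 in NTG against 75.9 to 89.3 in mNrf2-TG (Log2FC -0.09, 95% interval -0.36 to 0.18). Cyp4f13 did not overlap, at 23, 18, 23.7 and 21.9 in NTG and 30.1, 28.6 and 38.1 in mNrf2-TG, and did not pass (Log2FC 0.58, SE 0.215, adjusted p = 0.0904). Of the 2 retinoic acid hydroxylases, Cyp26a1 was close to 0 and Cyp26b1 was at 24.1, 29.7, 76.3 and 16.9 in NTG and 21.5, 19.7 and 18.2 in mNrf2-TG (adjusted p = 0.229). NTG replicate 3 was far above the other hearts for Cyp26b1, and the gene was called neither with nor without it.

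Cyp27a1 (chromosome 1, 74713574 to 74737892), the mitochondrial sterol 27-hydroxylase, was upregulated. Values were 90.8, 99, 120 and 82.6 in NTG and 157, 212 and 165 in mNrf2-TG. The lowest mNrf2-TG heart was clearly above the highest NTG heart, NTG replicate 3. The Log2FC was 0.86 (SE 0.153, adjusted p = 0.00562 by edgeR), a 1.82-fold difference, and the call was made under all 15 alternatives (Log2FC 0.72 to 0.97). It was the only one called of 8 P450s of sterol, steroid, bile acid or vitamin D metabolism or without a settled role. Of all genes tested, 17.2% were called. Cyp39a1, an oxysterol hydroxylase, had an unadjusted p of 0.0402 and an adjusted p of 0.135 (Log2FC 0.34). Cyp27a1 is also abundant in macrophages, whose markers were higher in the same hearts: 5 of 6 were called higher (Adgre1, Csf1r, C1qa, C1qb and Lyz2), with sums of 1714 to 2063 in NTG against 2837 to 3737 in mNrf2-TG. Csf1r had a Log2FC of 1.06. The part of macrophages in the Cyp27a1 result was not tested.

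Aldo-keto reductase mRNA was higher in mNrf2-TG hearts as a sum. Of 13 genes, 2 were upregulated, beside 8.48% of all genes tested, and 12 had a Log2FC above 0, beside 7328 of all 14637 genes. However, 6 of the 13 had a mean under 10 counts, where the sign can rest on a few reads. The summed normalized counts of the family were 3771 to 4013 in NTG against 4737 to 5033 in mNrf2-TG, a ratio of 1.25. Much of this difference in the sum lay in Akr1a1, whose mean was 1808 in NTG and 2374 in mNrf2-TG while the mean sum was 3925 and 4890. Akr1a1 (chromosome 4, 116636510 to 116651680), the aldehyde reductase that also makes the ascorbate precursor in mice, had the highest level of the 83 genes. It was at 1802, 1888, 1738 and 1803 in NTG and 2346, 2393 and 2384 in mNrf2-TG. Each group was tight and they were far apart relative to their spread, and the 1.31-fold difference passed the test (Log2FC 0.39, SE 0.0607, adjusted p = 0.00301 by edgeR). It was called under all 15 alternatives.

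Akr1b10 (chromosome 6, 34384218 to 34396950), a reductase of aldehydes and retinaldehyde, rose alike. Values were 582, 630, 655 and 643 in NTG and 890, 868 and 754 in mNrf2-TG (Log2FC 0.42, SE 0.0808, adjusted p = 0.0081 by edgeR), and the call was made under all 15 alternatives. The gene lies in a cluster of Akr1b genes on chromosome 6, between Akr1b8 (34354119 to 34368463) and Akr1b7 (34412334 to 34423142), with Akr1b3 on the opposite strand at 34302434 to 34317478. Its neighbours gave unlike values. Akr1b8 was at 23, 35.1, 46.4 and 25.9 in NTG and 60.3, 48.3 and 48.1 in mNrf2-TG, without overlap, with a Log2FC of 0.67 (SE 0.244) and an adjusted p of 0.0883. Without NTG replicate 3 the Log2FC of Akr1b8 was 0.88 and the adjusted p 0.0188. Akr1b3, the aldose reductase of the polyol pathway, was at 767 to 991 in NTG against 862 to 973 in mNrf2-TG (Log2FC 0.11, 95% interval -0.1 to 0.32, adjusted p = 0.463). Akr1b7 had at most 3 counts. Whether the changes of these neighbours differ from each other was not tested, and 2.9% of the 50-base stretches of Akr1b8 and 1.18% of those of Akr1b10 also occur in other genes. The remaining aldo-keto reductases with a mean of at least 10 counts were Akr1c14, Akr1e1 and Akr7a5, with a Log2FC of 0.44, 0.24 and 0.15 and none called, though Akr1c14 was called without NTG replicate 4.

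**Figure D4:**
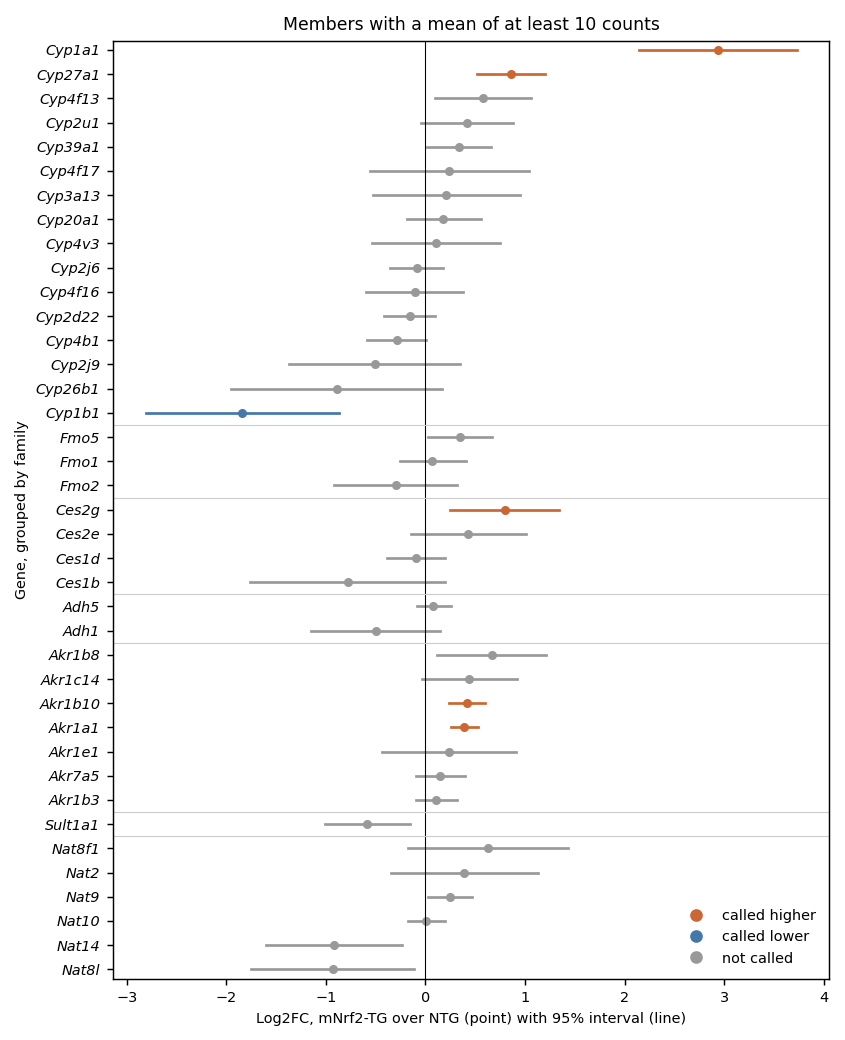
Log2FC of mNrf2-TG over NTG with its 95% interval for the 39 genes with a mean of at least 10 counts, grouped by family, with called genes in colour. The 7 aldo-keto reductases all have points above 0, and Cyp1a1 and Cyp1b1 lie farthest out at 2.94 and -1.84.

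Ces2g (chromosome 8, 104961718 to 104969537), a carboxylesterase of the Ces2 group, was the only one of 9 Ces genes called, beside 17.2% of all genes tested. It was at 32.2, 17.1, 26.8 and 23.9 in NTG and 37.7, 38.4 and 52.6 in mNrf2-TG. The groups did not overlap, though only by a small gap. The Log2FC was 0.80 (SE 0.244) and the adjusted p of 0.0498 was at the threshold, and the gene was not called in 6 of the 15 alternatives (adjusted p 0.0404 to 0.178). These were DESeq2 (0.0724) and the fits without NTG replicate 2 (0.114) or 4 (0.0908) or without mNrf2-TG replicate 17 (0.0838), 18 (0.0816) or 19 (0.178). Of its 50-base stretches 3.12% occur in other genes, mainly Ces2f and Ces2e. Ces1d, which hydrolyses triacylglycerol as well as drugs, was at 1226, 1172, 1599 and 1027 in NTG and 1195, 1108 and 1221 in mNrf2-TG (Log2FC -0.1, 95% interval -0.39 to 0.2, adjusted p = 0.662), and its Log2FC was 0.04 without NTG replicate 3, the highest heart.

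No gene of the Fmo and Adh families was called by edgeR or DESeq2. Only Fmo5 had an unadjusted p under 0.05, beside 4708 of all 14637 genes tested. The flavin monooxygenases oxidize the nitrogen and sulfur atoms of drugs, and Fmo2 was the highest of them in NTG hearts at 76.5 normalized counts per kb. Fmo2 was at 344, 357, 715 and 301 in NTG and 341, 427 and 280 in mNrf2-TG, with NTG replicate 3 far above all others. Its Log2FC was -0.30 with that library (adjusted p = 0.506) and 0.06 without it. Fmo5 went the other way in the same heart, at 207, 213, 152 and 207 in NTG and 214, 293 and 239 in mNrf2-TG. Its groups were separated by a narrow margin, and its Log2FC was 0.35 (SE 0.144, adjusted p = 0.121) with NTG replicate 3 and 0.25 without it. Adh5, which clears formaldehyde and S-nitrosoglutathione, was at 619 to 715 in NTG against 664 to 769 in mNrf2-TG (Log2FC 0.08, 95% interval -0.09 to 0.26, adjusted p = 0.514). Adh1, the retinol and ethanol dehydrogenase, was at 107 to 242 and 76.4 to 138, overlapping and not called.

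None of the 19 Ugt, Sult and Nat genes was called by edgeR's quasi-likelihood test, and DESeq2 called 1 (Sult1a1). Glutathione S-transferases, which also conjugate, fall outside the symbol rule. The paper reports those of the alpha class and several of the mu class as upregulated in these hearts. Of the 19 genes, 5 had an unadjusted p under 0.05 (Sult1a1, Nat1, Nat8l, Nat9 and Nat14), beside 4708 of all 14637 genes tested. Sult1a1, the phenol sulfotransferase, was the only Sult gene with a mean of at least 10 counts. It was at 265, 328, 504 and 328 in NTG and 210, 255 and 246 in mNrf2-TG. All 3 mNrf2-TG hearts were below all 4 NTG hearts. The Log2FC was -0.59 (SE 0.192, 95% interval -1.01 to -0.16), with an adjusted p of 0.062 by edgeR and 0.0272 by DESeq2. Without NTG replicate 3, the highest of the NTG hearts, the Log2FC was -0.37 and the adjusted p 0.0438, so the difference was smaller and the test passed. It also passed without NTG replicate 1 (Log2FC -0.70, adjusted p = 0.037). Sult1a1 shares 61 exon bases with Sgf29 on the opposite strand, and the sources used here do not say whether strand was used in counting.

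Glucuronidation genes were hardly detected. The highest of the 4, Ugt1a7c, had 4, 2, 4 and 2 counts in NTG and 6, 8 and 4 in mNrf2-TG (Log2FC 0.93, SE 0.519, adjusted p = 0.248). The Ugt1a genes share their last exons, and 53.7% of the 50-base stretches of Ugt1a7c occur in other genes, so the assignment to 1 of them is uncertain. Ugt3a2 had 9 counts in NTG replicate 4 and at most 1 elsewhere.

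Among the Nat genes, Nat1 of the arylamine kind had 2, 1, 4 and 5 counts in NTG and 7, 8 and 7 in mNrf2-TG. The groups did not overlap, and the adjusted p was 0.132. Nat2 was at 7.2 to 14.4 normalized counts in NTG against 10.8 to 18.2 in mNrf2-TG, with overlap. Of the 9 acetyltransferases with other substrates, Nat10, which acetylates RNA, had the most counts, at 172 to 186 in NTG against 178 to 184 in mNrf2-TG (Log2FC 0.01, 95% interval -0.18 to 0.2). Nat9 was at 98.1 to 104 and 116 to 123, a small difference without overlap (Log2FC 0.25, adjusted p = 0.116). Nat8l, which makes N-acetylaspartate, was at 19.5, 17.1, 29.9 and 13.9 in NTG and 6.46, 10.8 and 13.6 in mNrf2-TG (Log2FC -0.93, adjusted p = 0.107). Without NTG replicate 3 the Log2FC of Nat8l was -0.68 (adjusted p = 0.202). Nat14 was at 14.4 to 28.9 in NTG against 9.68 to 11.8 in mNrf2-TG (Log2FC -0.92, adjusted p = 0.0662), with an adjusted p of 0.0306 without NTG replicate 3 and 0.0478 with a filter of at least 10 counts in every library of a group.

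Several of the partner genes that feed these enzymes were upregulated. A list of 30 symbols for electron transfer, heme and cofactor supply was drawn up, and 26 were in the table. Fdx1l and Impad1 are older symbols of the listed and measured Fdx2 and Bpnt2, and Sts and Aadac were not analysed here. Of the 26 genes, 5 were upregulated and 1 was downregulated. These 6 of 26 are given as a description, beside 17.2% of all genes tested. Cyb5a, cytochrome b5, passes electrons to P450s and fatty acid desaturases. It was at 580, 582, 561 and 518 in NTG and 1221, 1297 and 1218 in mNrf2-TG, groups that were tight and far apart (Log2FC 1.15, SE 0.0701, adjusted p = 8.15e-06 by edgeR). The NADH-cytochrome b5 reductases Cyb5r1 (Log2FC 0.80, 205 to 226 in NTG against 348 to 414 in mNrf2-TG) and Cyb5r3 (Log2FC 0.48, 632 to 747 and 928 to 1034) also rose. Cyb5r2 (Log2FC -0.13), Cyb5r4 (0.12) and Cyb5b (0.14), their relatives, were not called. Por, the reductase that supplies all microsomal P450s with electrons from NADPH, was at 373 to 484 in NTG against 425 to 495 in mNrf2-TG (Log2FC 0.07, 95% interval -0.15 to 0.29, adjusted p = 0.678). The difference between Cyb5a and Por was not tested.

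Supply of conjugation cofactors was mixed. Slc35d1, which carries UDP-glucuronic acid into the endoplasmic reticulum, was at 71.3, 67.5, 71.1 and 89.6 in NTG and rose to 150, 144 and 123 in mNrf2-TG (Log2FC 0.89, SE 0.135, adjusted p = 0.00281). Papss2, which makes the sulfate donor PAPS, was at 140, 178, 193 and 193 in NTG and fell to 115, 119 and 137 in mNrf2-TG (Log2FC -0.51, SE 0.134, adjusted p = 0.028). Papss2 and Sult1a1, donor and enzyme of sulfation, were thus both below NTG without overlap, but only Papss2 passed the test. Its call was lost without NTG replicate 2 (adjusted p = 0.0677) or 4 (0.0617) or mNrf2-TG replicate 17 (0.0998) or 18 (0.0884). Acss2, which makes acetyl-CoA, rose (Log2FC 0.46, adjusted p = 0.0293) and was lost without NTG replicate 1 (0.0553) or 2 (0.0717) or mNrf2-TG replicate 17 (0.115). Ugp2, which makes UDP-glucose and had the most counts of the list, was at 4627 to 5287 in NTG and at 5017, 3367 and 3087 in mNrf2-TG. The last 2 hearts were below all NTG hearts and mNrf2-TG replicate 17 was not, and the adjusted p was 0.103 with that library and 0.00448 without it.

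**Figure D5:**
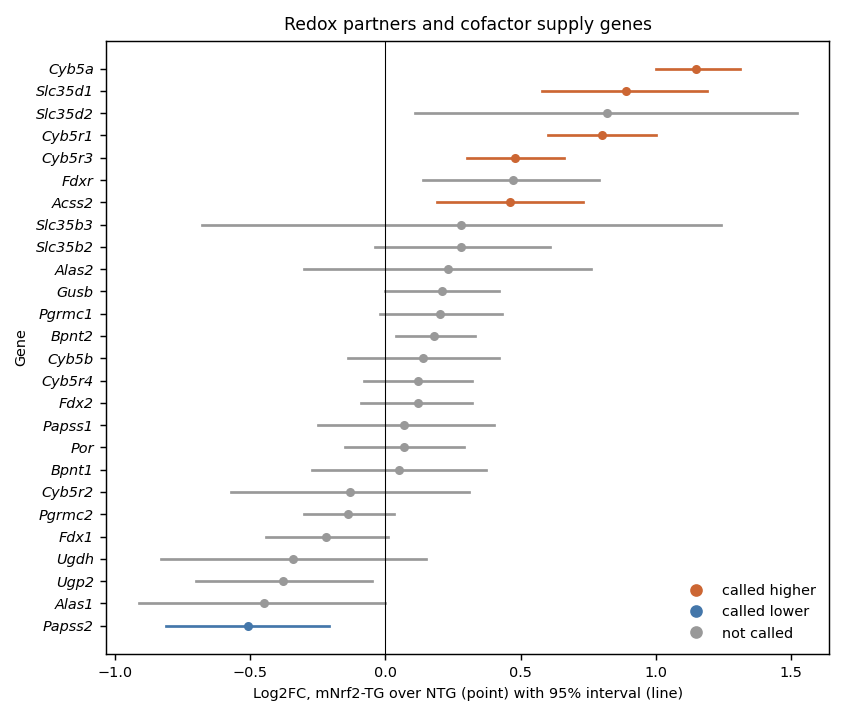
Log2FC of mNrf2-TG over NTG with its 95% interval for the 26 measured redox partner and cofactor supply genes. Cyb5a has the highest point at 1.15, Papss2 the lowest at -0.51, and Por lies near 0.

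Of 27 listed regulators of drug-metabolizing genes, mostly transcription factors and receptors, 26 were in the table, and 1 was upregulated and 4 were downregulated. These 5 of 26 stand beside 17.2% of all genes tested. Ppara, the fatty acid receptor that drives Cyp4 genes, was at 1699, 1575, 1254 and 1538 in NTG and fell to 870, 937 and 984 in mNrf2-TG (Log2FC -0.7, SE 0.103, adjusted p = 0.00225). Cebpb fell (Log2FC -1.15, SE 0.165, adjusted p = 0.002) and Cebpa rose (Log2FC 0.84, SE 0.199, adjusted p = 0.0182), a pair of leucine zipper factors of liver and fat. Pparg also fell (Log2FC -0.47, adjusted p = 0.0283). Ppara and Cebpb were called under all 15 alternatives, while the other 3 calls each depended on single libraries. Cebpa was lost without mNrf2-TG replicate 17 (adjusted p = 0.0533) or 18 (0.0733), and Pparg without any of NTG replicates 1 and 2 and the mNrf2-TG hearts (0.0543 to 0.0899). Tef, a circadian factor, had the most counts at 1244 to 1966 in NTG against 1484 to 1603 in mNrf2-TG and was not called.

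Around the aryl hydrocarbon receptor, Ahr and Ahrr were not called and Tiparp was downregulated. Ahr, the receptor, was at 49.4, 59.4, 78.4 and 43.8 in NTG and 68.9, 81.8 and 73.5 in mNrf2-TG (Log2FC 0.37, 95% interval -0.07 to 0.81, adjusted p = 0.227). Arnt, its partner, was lower without overlap but not called (Log2FC -0.19, adjusted p = 0.106 by edgeR). Tiparp, a well-known target and repressor of the receptor, was at 176, 202, 356 and 124 in NTG and fell to 94.7, 101 and 88 in mNrf2-TG (Log2FC -1.18, SE 0.305, adjusted p = 0.0263). Without NTG replicate 3, its highest heart, the Log2FC was -0.82 (adjusted p = 0.00845). Its call was lost without NTG replicate 2 (0.0539) or any 1 of the mNrf2-TG hearts (0.0693 to 0.0856). Ahrr, the repressor gene induced by the receptor, was at 40.2, 45, 81.5 and 94.6 in NTG and 107, 79.8 and 86.2 in mNrf2-TG (Log2FC 0.47, adjusted p = 0.273). Of these targets, Cyp1a1 was higher without overlap, Cyp1b1 and Tiparp were lower without overlap, and Ahrr overlapped. NTG replicate 3 was the highest NTG heart for both Cyp1b1 and Tiparp. It was the lowest for Cyp1a1, but with raw counts of 5, 7, 3 and 7 in NTG replicates 1 to 4 that order is within counting error.

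Defining markers of liver and fat, tissues rich in these enzymes, were at low levels. Of 10 hepatocyte markers 5 were in the table and none was called, with sums of 27 to 105 in NTG against 19 to 33 in mNrf2-TG. Of 9 adipocyte markers 6 were in the table and 1 was called, lower (Adipor2), with sums of 5132 to 5387 in NTG against 4503 to 4837 in mNrf2-TG. The defining ones, Adipoq and Plin1, had at most 5 and 3 counts in any library, and Cfd at most 15. Of 4 brown adipocyte markers 2 were in the table, Cidea and Cox8b, while Ucp1 and Elovl3 were not. Their sums were 4797 to 5182 in NTG and 3531 to 4602 in mNrf2-TG. Most of each sum was Cox8b, at 4603 to 4973 in NTG and 3362 to 4408 in mNrf2-TG, which was called lower. With Ucp1 and Elovl3 not in the table, these sums do not show brown fat RNA or a loss of it. Of 4 adrenal cortex markers only Star was in the table, and it was called higher (Log2FC 0.99). None of 3 lung epithelium markers was in the table, and of 4 red blood cell markers 3 were in it and none was called (sums of 1001 to 1626 in NTG and 642 to 1433 in mNrf2-TG). Cardiomyocyte markers had sums of 721811 to 749475 in NTG against 616435 to 631724 in mNrf2-TG, and 3 of 8 were called lower (Myl2, Tnni3 and Pln). Their part in the enzyme results was not tested.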

How the data were processed

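Single reads were obtained from whole-heart RNA of 4 NTG and 3 mNrf2-TG mice by stranded TruSeq mRNA libraries, 1 library per mouse. The authors deposited raw read counts per gene, which were used here. Per the submitters' processing notes, Novoalign 2.08.01 and DESeq2 1.32.0 were used. The methods name both a human and a mouse genome build, the labels mm10 (GRCm38), and the counting program and its use of strand are not given in the sources used here. The authors' regularized log values and their own comparison (fold changes and p-values) were not used.

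Of 14665 entries, 24 repeats of an Entrez gene were removed, leaving 14641 genes. Genes with a summed count above 1 (14637) were tested in edgeR 4.0.16 (R 4.3.3) by the quasi-likelihood test after TMM normalization, with genotype as the single factor. Benjamini-Hochberg adjustment was made over all genes tested. A gene was called at an adjusted p under 0.05. Intervals are 95%. The steps were checked on simulated data. Alternatives were DESeq2 1.42.0 (independent filtering off), limma-voom (limma 3.58.1), other size factors, other filters on low counts, all deposited entries, and leaving out each library in turn. At 6534684 to 8405857 reads per library, a gene of a few counts shows only large changes, and counting intervals cover counting error only. P-values set the difference between the groups against the spread among hearts within a group, and they cover these 7 hearts only.

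Named were all called genes, the most abundant of each family, genes whose groups did not overlap, genes at or near 0, and called or most abundant genes of the lists (redox and cofactor partners, regulators, cell type markers). Genes named besides these, such as Cyp2d22, Cyp2j6, Cyp3a13, Cyp26b1, Cyp39a1, Akr1b3, Akr1c14, Akr1c21, Akr1e1, Akr7a5, Adh1, Nat2, Ugt3a2, Por, Cyb5b, Cyb5r2, Cyb5r4, Papss1, Ahr, Arnt and Ahrr, were chosen after their values were seen. The naming rule for the enzymes and the gene lists were chosen with earlier results of these data known. Positions and exon lengths are from GENCODE M21, promoters from RefSeq (GRCm38.p6), and shared 50-base stretches were counted over GENCODE transcripts.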

Additional observations from a re-analysis of the deposited data

Results flagged for a closer look

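NTG replicate 3 was far from the other 3 NTG hearts in 2 of the 22 enzyme genes named by rule and compared in this way. Fmo2 was at 715 normalized counts there against 301 to 357 in the others, a gap of 0.863 of the group's range. Fmo5 was at 152 against 207 to 213, a gap of 0.896. Both gaps exceed Dixon's 95% critical value for 4 values, which chance alone exceeds in about 1 in 20 groups. Groups of 3, such as the mNrf2-TG hearts, were not examined.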

How the results depend on the processing

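Akr1a1, Akr1b10, Cyp1a1 and Cyp27a1 were called, in the same direction, under all 15 alternatives, and no called enzyme gene changed sign. The number of enzymes called higher was 4 to 6 throughout. The number called lower, 1 (Cyp1b1), was 2 with DESeq2 (Sult1a1 added), 2 with a filter of at least 10 counts in every library of a group (Nat14 added) and 0 with limma-voom. Leaving out each library in turn gave 0 to 3 genes called lower and a median Log2FC of 0.033 (without NTG replicate 1) to 0.199 (without mNrf2-TG replicate 18) against 0.110. The number of regulator genes called, 5, was 2 to 7 when 1 library was left out, with 2 without mNrf2-TG replicates 17 or 18 and 3 without NTG replicate 2 or mNrf2-TG replicate 19. Fewer samples enter these fits. Over all genes 20.2% were called without NTG replicate 3, above the 17.2% of the full fit, and 9.39% to 14.7% without any other library. The cause of the other differences was not tested. Partner genes called stayed between 4 and 8. No paired analysis was possible because the labels give the groups no replicate numbers in common. Depth limits the 44 genes under a mean of 10 counts.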
